A study of Mus musculus with 112 samples.

Results

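Cartilage matrix genes were followed through 56 mouse mammary tumours. The group holds 10 of the 18193 genes measured by a probe set with 1 gene symbol: Col2a1, Cnmd, Comp, Col9a1, Col9a3, Col11a1, Col11a2, Hapln1, Acan and Sox9. They were chosen by their measured log2 values in these same tumours, because several of them stood out in single tumours, so their levels are given as a description. All 19 probe sets whose only symbol was one of these genes were used, 17 on the array MOE430A and 2 on the array MOE430B (1 of Hapln1 and 1 of Sox9).

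Every tumour arose spontaneously in a mouse carrying the polyoma middle T antigen transgene (PyMT) driven by the mouse mammary tumour virus promoter (MMTV). They were bred by crossing to 18 different AKXD sublines, which form a panel of recombinant inbred mouse strains. There were 3 tumours in each of 16 sublines and 4 in each of the other 2, sublines 2 and 25, and every tumour was hybridised to both array types. All tumours carried the transgene and no subline was a control. Age and the region of the tumour sampled are not stated in the labels. Tumours of 1 subline are biological replicates by label, and they keep the label's numbers here.

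Cartilage matrix is built on thin fibrils of type II collagen, with type XI collagen inside the fibril and type IX collagen on its surface. Aggrecan, held on hyaluronan by link protein, fills the space between the fibrils and takes up water. The transcription factor SOX9 switches on most of these genes in chondrocytes, and several of the genes are also read at lower levels in other connective tissues and epithelia. Cartilage is not a normal tissue of the mouse mammary gland.

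Promoter sequences show what the arrays cannot, the DNA at the start of the genes. The table of RefSeq promoters (mouse build GRCm38.p6) held 7 promoters for 6 of the 10 genes. Each ran over 300 bases, 250 before to 50 after the start that the promoter table uses. Of the genes with a promoter in that table, Cnmd and Col11a2 had the highest levels relative to the median in a single tumour, and Acan is shown beside them because it did not stand out in that tumour. Cnmd lies on the minus strand at chr14:79662134-79662433, Col11a2 on the plus strand at chr17:34038888-34039187 and Acan on the plus strand at chr7:79052976-79053275. Capitals mark a TATA box (TATAAA) or a GC box (GGGCGG, read on either strand, so also CCGCCC).
Cnmd promoter: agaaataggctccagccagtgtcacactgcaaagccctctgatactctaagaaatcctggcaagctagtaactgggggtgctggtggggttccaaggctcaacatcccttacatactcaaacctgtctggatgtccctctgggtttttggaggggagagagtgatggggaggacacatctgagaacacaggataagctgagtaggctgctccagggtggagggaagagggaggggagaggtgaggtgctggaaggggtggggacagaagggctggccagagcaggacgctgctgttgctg
Col11a2 promoter: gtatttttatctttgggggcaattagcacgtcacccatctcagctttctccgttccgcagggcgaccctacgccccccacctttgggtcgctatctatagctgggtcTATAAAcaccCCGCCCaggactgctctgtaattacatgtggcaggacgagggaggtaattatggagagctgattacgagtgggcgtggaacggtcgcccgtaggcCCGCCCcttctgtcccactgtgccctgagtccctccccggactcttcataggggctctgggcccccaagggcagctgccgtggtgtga
Acan promoter: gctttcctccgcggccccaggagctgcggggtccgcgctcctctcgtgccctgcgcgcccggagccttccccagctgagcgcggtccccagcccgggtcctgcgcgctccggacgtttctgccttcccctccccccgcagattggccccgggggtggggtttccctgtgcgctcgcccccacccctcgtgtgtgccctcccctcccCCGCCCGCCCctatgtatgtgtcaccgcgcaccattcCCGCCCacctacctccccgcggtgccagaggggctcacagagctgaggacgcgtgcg
The Cnmd window held neither motif. The Col11a2 window held 1 TATA box, 143 bases before the start used by the promoter table, and 2 GC boxes. The RefSeq gene coordinates of Col11a2 begin at 34038919, ahead of that TATA box, so it lies inside the annotated gene. The Acan window held 3 GC boxes, 2 of which overlap, and was the richest in G and C, at 74% against 56% for Cnmd and 59% for Col11a2. Over all 32851 promoters of the table the median was 52.7%, a TATA box occurred in 13.6% and a GC box in 35.7%. The short SOX cores ACAAAG and ACAATG, searched on both strands, were in none of the 7 promoters, while 28.6% of all promoters held at least 1 of them. These are letter matches in short windows, and enhancers outside the windows were not analysed here.

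The values are log2 expression values, so a difference of 1 is 2-fold. Arrays that stood apart were left out, which kept 52 MOE430A arrays in 17 sublines and 53 MOE430B arrays in 18 sublines. On MOE430A the 3 tumours of subline 23 and tumour 3 of subline 25 were left out, with median correlations to the other arrays of 0.222 to 0.948. On MOE430B tumour 3 of subline 11, tumour 2 of subline 23 and tumour 3 of subline 25 were left out, at 0.860 to 0.920. The tumour on which many of the values below rest, tumour 1 of subline 21, was itself the least typical of the kept MOE430A arrays. Its median correlation with the other arrays was 0.970, against 0.980 to 0.991 for the other 51, and on MOE430B it was 0.973, against 0.969 to 0.991 for the other 52. Its Gapdh control pair, 3′ minus 5′, differed by -0.09 on MOE430A, within the -0.28 to 0.19 of the others. The 27 control probe sets for transcripts absent from mouse cells averaged 4.73 in it, against 4.69 to 5.05 in the others. It also had more probe sets at least 4-fold above the median than any other kept tumour, 142 on MOE430A against 0 to 66 in the others.

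As a mark of background, the highest value of any absent control on a kept array was 7.42 on MOE430A and 7.12 on MOE430B. Of the 17 member probe sets on MOE430A, 10 had a median over tumours above that value, and neither of the 2 on MOE430B did. A median below it does not show that a gene was silent.

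Most of the pattern lay in a single tumour. In subline 21, tumour 1 had the highest value of all kept tumours on 13 of the 17 member probe sets of MOE430A, where it was highest on 7.71% of all probe sets, and on 1 of the 2 of MOE430B, where it was highest on 5.50%. At least 1 tumour lay 4-fold or more above the median on 6 of the 17 member probe sets, against 1.38% of all probe sets, and on 0 of the 2 on MOE430B, against 0.622%. The highest tumour was tumour 1 of subline 21 on all 6, which cover Col2a1, Cnmd, Comp, Col11a2 and both probe sets of Col11a1. On 4 of them, for Col2a1, Cnmd, Comp and Col11a2, it was also at least 2-fold above the next tumour, against 0.676% of all probe sets (0.431% on MOE430B). That tumour by itself lay 4-fold or more above the others' median on 0.628% of all probe sets of MOE430A and 0.351% of MOE430B. Without it, 2 of the 17, those of Cnmd and the dimmer of Col11a1, still had a tumour 4-fold above the median, against 202 of all 22626. The genes were picked for this pattern, so nothing is read from these shares.

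**Figure D1:**
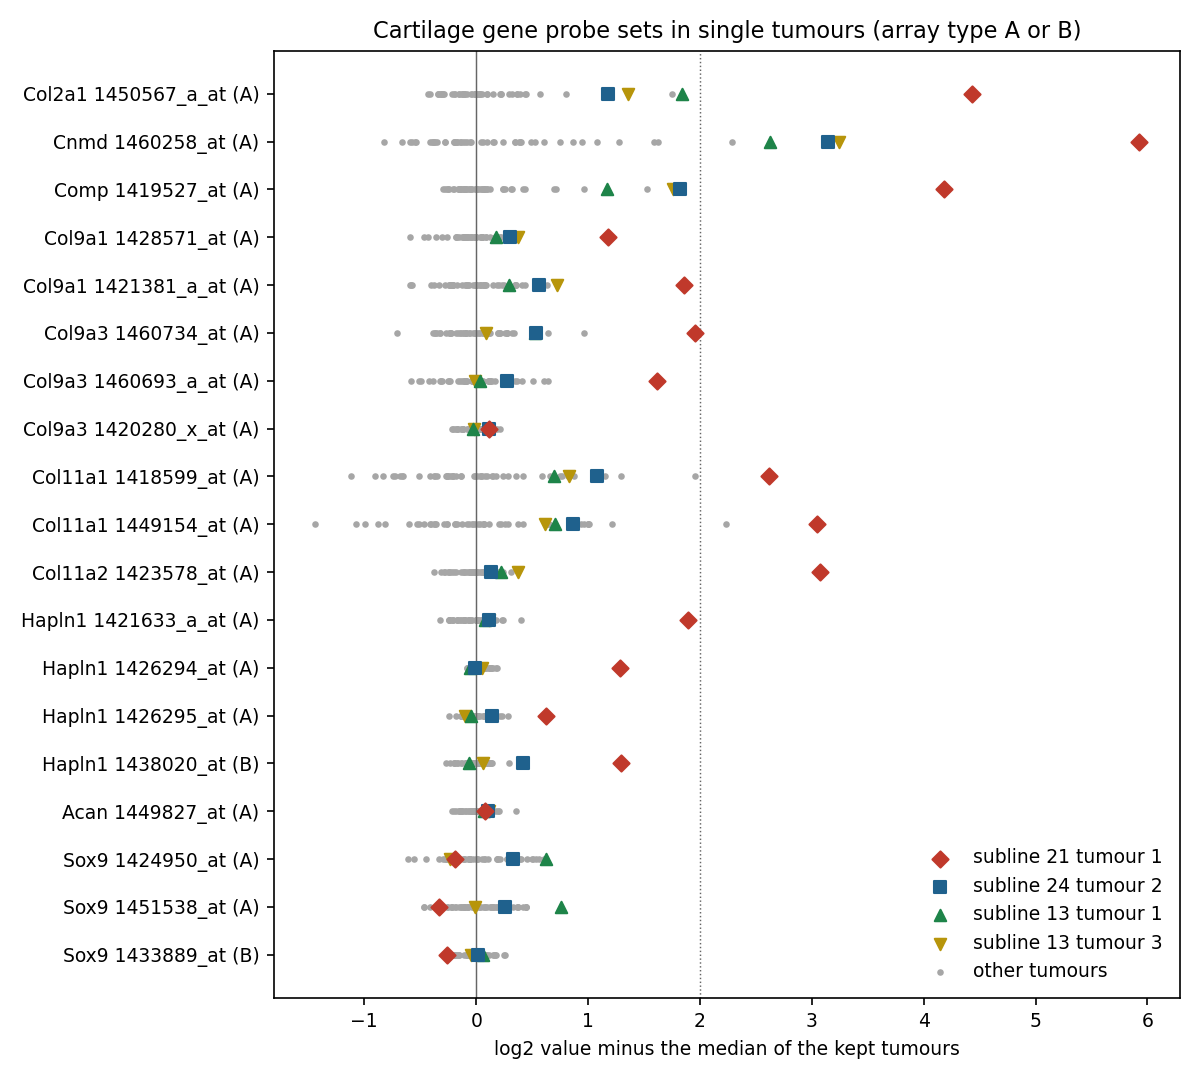
Each row is a member probe set and each point a kept tumour, placed by its log2 value minus the median of the kept tumours (dotted line: 4-fold). Tumour 1 of subline 21 lies to the right of all other tumours for Col2a1, Cnmd, Comp, Col11a1 and Col11a2, and among them for Acan and Sox9.

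Type II collagen is the main fibril of cartilage, and Col2a1 encodes its chain (probe set 1450567_a_at). Col2a1 read 12.19 in tumour 1 of subline 21, against a lowest of 7.33, a median of 7.76 and a highest of 9.60 in the other 51 tumours. That is 21.5-fold over the median of the others. The 2 other tumours of subline 21 read 7.42 and 8.13, within the range of the remaining tumours, with 7.42 near its lower end.
Below it, 4 tumours were at least 2-fold above the median of Col2a1. They were tumour 1 of subline 13 at 9.60, tumour 1 of subline 14 at 9.51, tumour 3 of subline 13 at 9.12 and tumour 2 of subline 24 at 8.94. Tumour 2 of subline 13 read only 7.47, so the subline held tumours on both sides of the median.

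Type XI collagen sits in the core of the type II fibril, and Col11a1 and Col11a2 encode 2 of its chains. Col11a2 (1423578_at) read 10.56 in tumour 1 of subline 21, against 7.11, 7.49 and 7.87 as the lowest, median and highest of the others. It was 8.41-fold over their median, and the rest of the panel was closely packed, with no other tumour 2-fold above it. The 2 other tumours of subline 21 read 7.25 and 7.43.
Col11a1 varied far more widely across the panel. Its brighter probe set (1418599_at) read 11.97 in tumour 1 of subline 21, against 8.23, 9.34 and 11.31 as the lowest, median and highest of the other tumours. The tumour at 11.31 was tumour 1 of subline 25, followed by tumour 2 of the same subline at 10.64. The dimmer probe set (1449154_at) gave the same first 2 tumours, 10.89 in tumour 1 of subline 21 and 10.08 in tumour 1 of subline 25, against a median of 7.85 over all kept tumours. Tumour 1 of subline 25 was not high for Comp, at 7.34, or for Col9a3 (1460734_at), where its 9.55 was the lowest value of all kept tumours.

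Type IX collagen decorates the fibril surface, and the brightest probe set of each measured chain lay above the highest absent control in all 52 kept tumours. Col9a1 (1428571_at) read 13.44 in tumour 1 of subline 21, against 11.66, 12.25 and 12.63 as the lowest, median and highest of the others. The second probe set of Col9a1 (1421381_a_at) gave a wider step, 1.86 above the median of the kept tumours. The first gave 1.18 above it, and both fall short of 4-fold.
Col9a3 (1460734_at) read 12.22 in tumour 1 of subline 21, against 9.55, 10.25 and 11.22 as the lowest, median and highest of the others, with tumour 1 of subline 10 next. At 1.96 above the median of the kept tumours it lay just under the 4-fold limit, while Col11a1 (1418599_at), at 2.62, was the member closest above it. A second Col9a3 probe set (1460693_a_at) read 8.47 in that tumour against a panel median of 6.86. The last one (1420280_x_at) stayed between 4.45 and 4.88 in all kept tumours, under the highest absent control, and did not set the tumour apart.

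Among the secreted cartilage proteins, Cnmd and Comp gave large differences in the same tumour. Cnmd (1460258_at) encodes chondromodulin, a cartilage glycoprotein known to hold back blood vessel growth. Cnmd read 11.83 in tumour 1 of subline 21, against 5.09, 5.87 and 9.15 as the lowest, median and highest of the others. That is 5.97 above their median on the log2 scale, but the median lies under the highest absent control, so no fold is given. Its 2 companions in subline 21 read 5.52 and 5.54, below the median.
Cnmd was also the member that stood above its median in the most tumours. Of the 52 kept tumours, 9 were at least 2-fold and 5 at least 4-fold above the median, and 7 exceeded the highest absent control. After tumour 1 of subline 21, the 4-fold tumours were tumour 3 of subline 13 at 9.15, tumour 2 of subline 24 at 9.06, tumour 1 of subline 13 at 8.54 and tumour 1 of subline 25 at 8.20.
Comp (1419527_at) encodes cartilage oligomeric matrix protein, which binds collagen fibrils and is also made in tendon. Comp read 11.64 in tumour 1 of subline 21, against 7.16, 7.45 and 9.28 as the lowest, median and highest of the others, an 18.2-fold step. Tumour 2 of subline 24 at 9.28 and tumour 3 of subline 13 at 9.22 came next, then tumour 3 of subline 10 at 8.98. The other tumours of subline 21 read 7.32 and 7.39, at the panel's usual level.

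**Figure D2:**
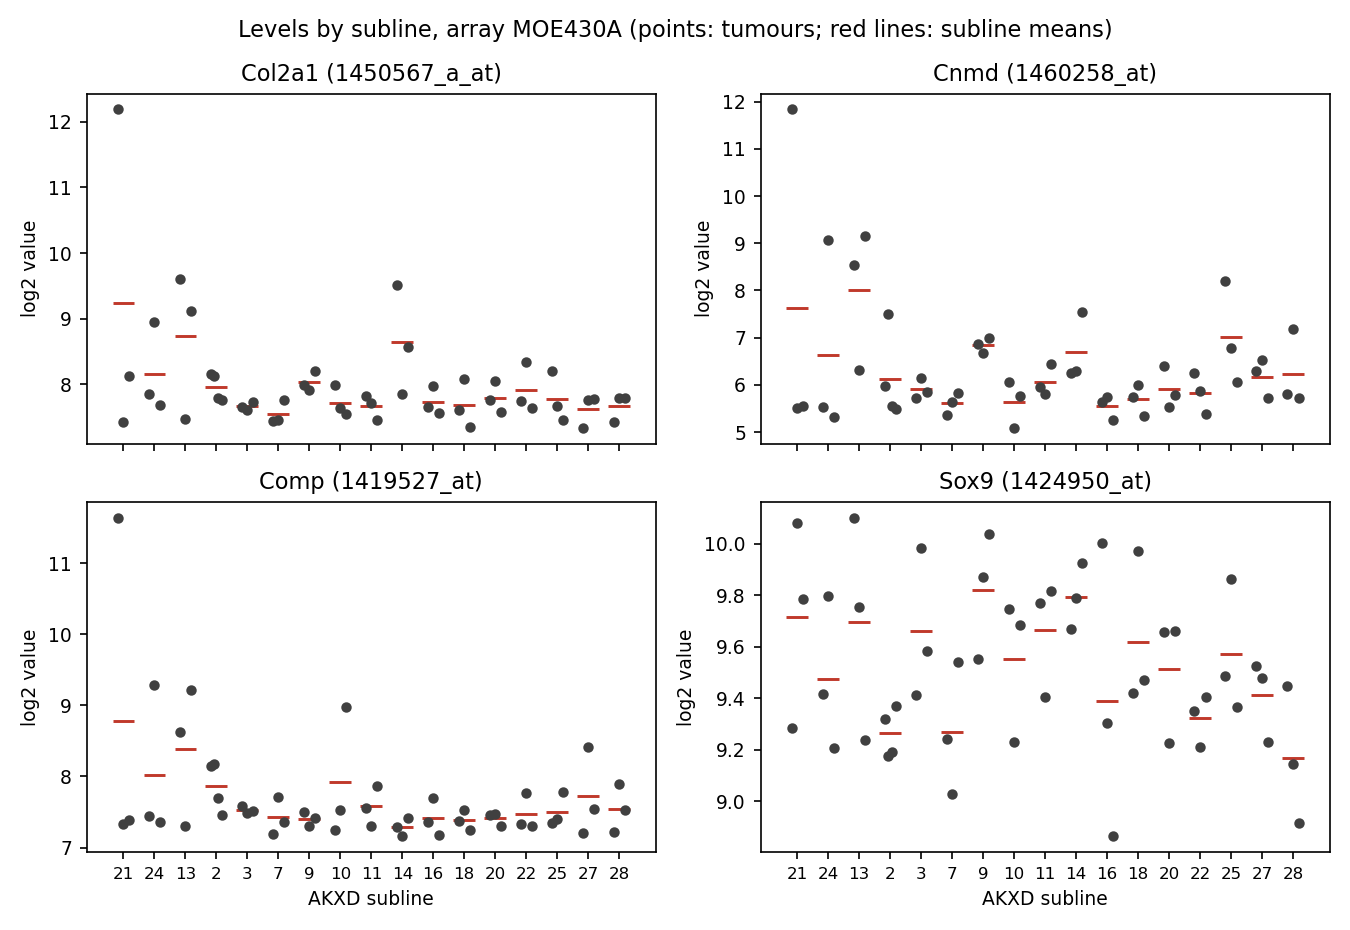
Each point is a kept tumour on MOE430A and each red line a subline mean, with the log2 value on the vertical axis (which does not start at 0) and the AKXD subline on the horizontal axis. For Col2a1, Cnmd and Comp 1 tumour of subline 21 lies far above the other 2, at 12.19, 11.83 and 11.64, while Sox9 shows no such tumour.

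Link protein and aggrecan are partners in cartilage, and they differed here. Hapln1, which encodes link protein, was highest in tumour 1 of subline 21 on all 4 of its probe sets, but low in level. The brightest (1421633_a_at) read 6.99 there against 4.78, 5.10 and 5.50 as the lowest, median and highest of the others, so even the highest value stayed under the highest absent control. On MOE430B, measured on a separate array of the same tumour, Hapln1 (1438020_at) read 5.65, and tumour 2 of subline 24 came next at 4.77.
Acan, which encodes aggrecan, did not follow. Acan (1449827_at) read 6.70 in tumour 1 of subline 21, the 13th highest of 52, against 6.40, 6.61 and 6.97 as the lowest, median and highest of the others. The tumour at 6.97 was tumour 1 of subline 2, and the whole panel spanned less than 2-fold. All Acan values were below the highest absent control.

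Sox9, the regulator of the group, was not high in that tumour. Sox9 (1424950_at) read 9.29 in tumour 1 of subline 21, the 39th highest of 52, against 8.86, 9.48 and 10.10 as the lowest, median and highest of the others. The highest was tumour 1 of subline 13, and tumour 2 of subline 21 was close behind at 10.08. The second MOE430A probe set (1451538_at) gave the same order at the top, 10.02 in tumour 1 of subline 13, and 8.93 in tumour 1 of subline 21. On MOE430B the Sox9 probe set (1433889_at) read 5.30 in tumour 1 of subline 21, the lowest of all kept tumours, against a highest of 5.82. Both MOE430A probe sets therefore placed tumour 1 of subline 21 below the median for Sox9. The MOE430B values all lay under the highest absent control, so the rank there shows little about Sox9.

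A score puts the tumours in order: for each gene's brightest probe set the panel median was subtracted, and the 10 differences were averaged. The score was 2.51 in tumour 1 of subline 21, and tumour 2 of subline 24 scored 0.88, tumour 1 of subline 13 scored 0.80 and tumour 3 of subline 13 scored 0.80. Next came tumour 3 of subline 14 at 0.39, tumour 1 of subline 14 at 0.38 and tumour 1 of subline 25 at 0.38, and the lowest score was -0.33. In tumour 1 of subline 21, 8 of the 10 genes were at least 2-fold above the median, all but Acan and Sox9. In tumour 2 of subline 24 there were 4, Col2a1, Cnmd, Comp and Col11a1, and in tumours 1 and 3 of subline 13 there were 3, Col2a1, Cnmd and Comp. The same 3 genes were thus at least 2-fold above the median in all 4 tumours, and no other kept tumour had more than 2 of the 10 genes at that level.

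**Figure D3:**
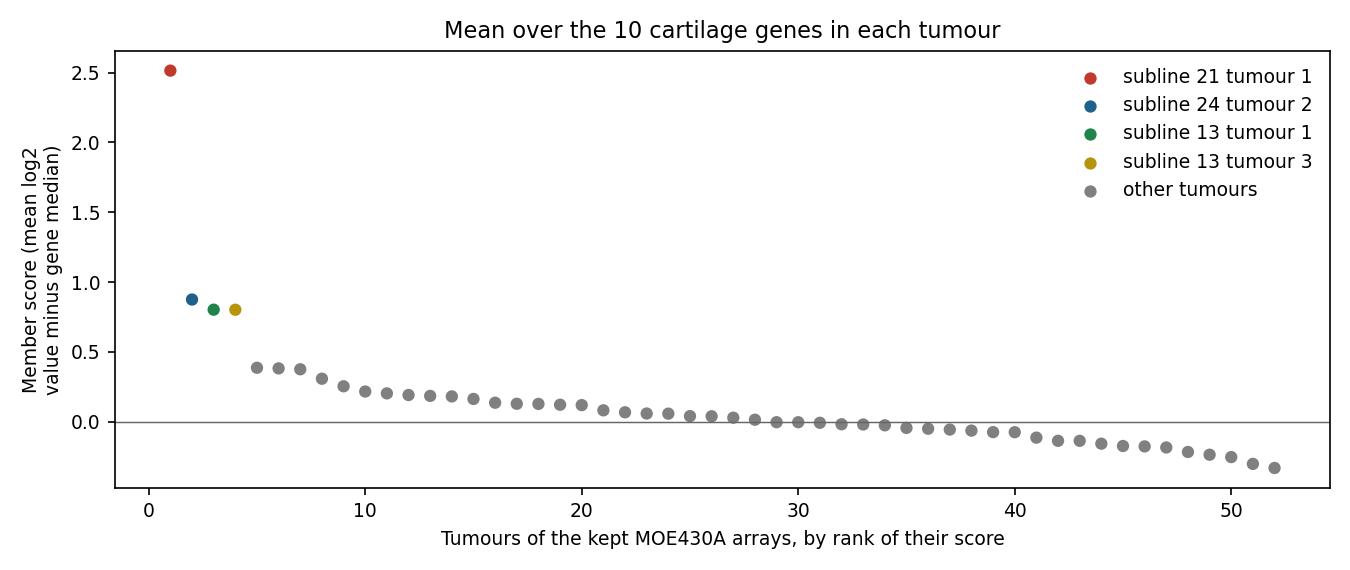
Each point is a kept tumour on MOE430A, ordered along the horizontal axis by its score, the mean log2 value minus the gene median over the 10 genes. Tumour 1 of subline 21 stands at 2.51, the next 3 tumours between 0.80 and 0.88, and the rest at or below 0.39.

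Whether the sublines differed was asked with limma's moderated F test over all probe sets, adjusted by the Benjamini-Hochberg method. None of the 17 member probe sets on MOE430A had an adjusted p under 0.05, where 1.74% of all probe sets did, and none of the 2 on MOE430B, where 0.671% did. The lowest unadjusted p of this F test among the members was 0.0170, for Col9a3 (1460693_a_at), with a limma adjusted p of 0.209. Col2a1 averaged 9.25 ± 2.57 in subline 21 (SD, n = 3), followed by 8.73 ± 1.12 in subline 13 (n = 3), and was lowest in subline 7, at 7.55 ± 0.18 (n = 3). Ordered by mean, no 2 neighbouring sublines differed in Col2a1 by more than the pooled SD within sublines, 0.75. Steps between ordered means tend to be small, and the pooled SD includes the 2.57 of subline 21. The comparison therefore does not show that the sublines were alike. For Cnmd the order began with subline 13, whose tumours read 8.54, 6.32 and 9.15, before subline 21, at 7.63 ± 3.64 (SD, n = 3). For Col11a1 the order depended on the probe set. On 1418599_at it began with subline 25, at 10.35 ± 1.13 (SD, n = 3), before subline 21, at 10.28 ± 1.55 (n = 3), and on 1449154_at subline 21 came first, at 9.09 ± 1.58 (SD, n = 3), before subline 25, at 8.87 ± 1.20 (n = 3). Sox9 was highest in subline 9, at 9.82 ± 0.25 (SD, n = 3), and lowest in subline 28, at 9.17 ± 0.27 (n = 3).

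In the same fit each subline was set against the mean of the others. On MOE430A 4 of the 17 member probe sets were called, all higher in subline 21, where 2.41% of all probe sets were called higher and 0.990% lower. Col9a3 was higher by 0.85 ± 0.17 (1460693_a_at; SE, limma adjusted p = 0.00412) and by 0.75 ± 0.21 (1460734_at; SE, limma adjusted p = 0.0316). The first of these probe sets exceeded the highest absent control in only 3 of the 52 kept tumours. Col11a2 was higher by 0.93 ± 0.27 (SE, limma adjusted p = 0.0450), a call lost with the replicate number as a block, at a limma adjusted p of 0.0508. Hapln1 (1426294_at) was higher by 0.39 ± 0.11 (SE, limma adjusted p = 0.0426). All 4 calls were lost with all 56 arrays and with array weights. Without tumour 1 of subline 21 none of the 17 was called in any subline, with 1302 calls over all probe sets and sublines. For Col2a1 the difference of subline 21 was 1.35 with that tumour, at a limma adjusted p of 0.0659, and -0.12 without it. On MOE430B neither member probe set was called in any subline, where 0.715% of all were called higher in subline 21 and 0.0933% lower. Hapln1 had a limma adjusted p of 0.0626 there. As these contrasts use the levels by which the genes were chosen, they are given as a description.

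Other gene lists show what else was high or low in tumour 1 of subline 21. Each list gene is given as the log2 value in that tumour minus the median of the other kept tumours, with 1 probe set per gene. Over all 18193 genes 2.33% were at least 2-fold higher and 0.539% at least 2-fold lower, with a median difference of -0.06. In bulk tissue a changed number of cells and a changed amount of RNA per cell cannot be told apart. These are single-tumour values without replicates, and no test was made on them.

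Of the 26 other cartilage genes measured, 4 were at least 2-fold higher, none was 2-fold lower, and the median difference was -0.03. Snorc, a small membrane proteoglycan of chondrocytes, read 11.11, against a highest of 9.01 in the others. Scrg1, first described in scrapie and also made in cartilage, read 10.95 against a highest of 9.87. Ccn2, a connective tissue growth factor, read 11.54 against a highest of 11.18, and Ucma, a cartilage matrix protein, read 6.95 against a highest of 6.39. Of these 26 genes 11 never exceeded the highest absent control in any kept tumour, among them Matn1, Matn3 and Col10a1. The list's mean was 0.40 in this tumour against -0.16 to 0.18 in the other tumours measured on both arrays. The high values were thus seen in a part of the cartilage list.

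Of the 10 bone genes measured, 2 were 2-fold higher. Dmp1, a matrix protein of osteocytes, read 7.87 against a highest of 5.99 in the others. Mmp13, a collagenase of growth cartilage and bone, read 8.55 and was also high in tumour 3 of subline 21, at 8.69. Col1a1, the main chain of bone and skin collagen, was lower, at 11.51 against a median of 12.27, and Alpl read 8.42 against a median of 8.66. Of the 7 measured regulators that work with Sox9, Sox8 differed by 1.14 and Sox6, which cooperates with Sox9 in chondrocytes, by 0.91. Both were the highest of the panel, and both stayed under the highest absent control in every tumour. Sox4 differed by -0.35 and Sox11 by 0.31.

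The stromal list had 4 of 20 genes at least 2-fold higher and a median difference of 0.41. Vcan, a large proteoglycan of loose connective tissue, read 10.92 against a highest of 9.13 in the others, and the others named were Col5a2 at 12.41 against 11.32, Fap at 9.17 against 8.62 and Sparc at 13.37 against 12.89. The main fibrillar collagens of the list were on the other side of the median, with differences of -0.75 for Col1a1, -0.66 for Col1a2, -0.39 for Col5a1 and -0.23 for Col3a1, and Col6a2 and Tnc differed by -0.45 and -0.30. These 6 were chosen after their values were seen. The list's mean was 0.38, within the -1.12 to 0.61 of the other tumours. No gene of the 8 in the tendon list was 2-fold different, with Thbs4 at -0.83, Col12a1 at -0.35, Mkx at 0.14 and Fmod at 0.12. Scx, Tnmd, Mkx and Kera stayed at or under the highest absent control in every tumour.

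Epithelial markers also stood apart in this tumour. Of the 9 basal and myoepithelial genes 4 were at least 2-fold higher. Mylk, a myosin kinase of contractile cells, read 11.09, Acta2, smooth muscle actin, read 12.62, Cnn1, calponin, read 8.83 and Trp63, a basal cell regulator, read 8.96. Tumour 2 of subline 24 was close for the contractile genes, at 10.34 for Mylk, 12.57 for Acta2 and 9.17 for Cnn1, but not for Trp63, at 7.94. The basal keratins Krt14 and Krt5 did not share this, with differences of -0.56 and -0.46 in tumour 1 of subline 21. Krt17 differed by -0.04, but it never exceeded the highest absent control in any kept tumour, so it shows little. These keratins were chosen after their values were seen. The list's mean was 0.84 in tumour 1 of subline 21 and 0.84 in tumour 2 of subline 24, against 0.21 in tumour 1 and 0.14 in tumour 3 of subline 13.
Of the 10 luminal genes, 8 had their lowest value of all kept tumours in tumour 1 of subline 21, and 2 were at least 2-fold lower. Cldn4, a tight junction protein, read 8.28 against 9.57 to 11.40 in the others, and Cldn3 read 11.51 against 12.40 to 12.96. Krt8, a luminal keratin, read 11.60 against 12.33 to 12.94, and Elf5, a regulator of milk-producing cells, read 11.41 against 11.81 to 12.81. The list's mean was -0.91, against -0.40 to 0.27 in the others, and -0.04 in tumour 2 of subline 24. Esr1 alone of the 10 never exceeded the highest absent control. The part of epithelial and stromal markers in the cartilage values was not tested.

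Markers of muscle, fat, skin and glia were read as other cells that a dissected tumour could hold. Skeletal muscle genes had a median difference of -0.72, and the list's mean of -0.73 lay within the -2.69 to 2.81 of the other tumours. The adipocyte list had 2 of 5 genes 2-fold lower, with a difference of -2.52 for Adipoq and -1.03 for Fabp4. The adipocyte list's mean was -0.95, against -1.35 to 1.77 in the others. None of the 8 skin genes differed 2-fold, and that list's mean of -0.13 lay within the -0.17 to 1.69 of the others. In the glial list 1 of 6 genes was 2-fold higher, S100b, which chondrocytes also make, at 9.01 against a highest of 7.67. Gfap read 8.19 against a highest of 8.01, while Mbp, a myelin protein, was the lowest of all, at 8.49. The glial list's mean was 0.40, the highest of all tumours, against -0.17 to 0.38 in the others, and its part in the cartilage values was not tested.

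**Figure D4:**
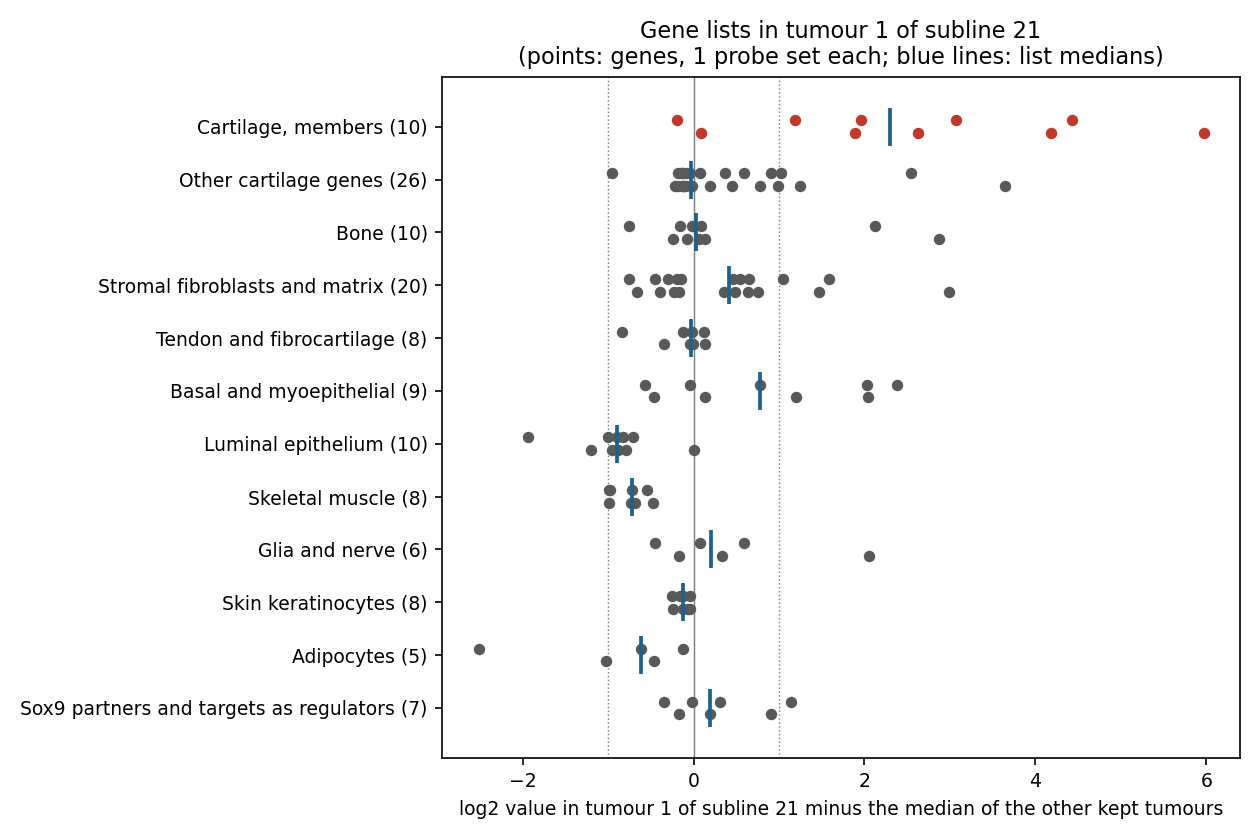
Each point is a gene, placed by its log2 value in tumour 1 of subline 21 minus the median of the other kept tumours, in 1 row per list with the number of genes measured (blue lines: list medians, dotted lines: 2-fold). Of the 10 member genes 8 lie beyond 2-fold, against 4 of the 26 other cartilage genes, and the luminal list has a median of -0.89.

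The genes whose levels ran most like the score over the tumours were named by Pearson correlation, a description that rests largely on tumour 1 of subline 21. Probe sets with no tumour above the highest absent control were left out of this ranking. Edil3, Nptx1, Cdh2 and Ncam1 on MOE430A, and Susd5 and Trpm3 on MOE430B, passed only through tumour 1 of subline 21. In all other kept tumours these probe sets lay under that control, so their coefficients describe little beyond that tumour. On MOE430A, over 52 tumours, they were Edil3 (r = 0.91), Nptx1 (0.90), Loxl3 (0.90), Gpm6b (0.89), Pdgfa (0.88), Cdh2 (0.88), Cspg5 (0.87), Ncam1 (0.87), Snorc (0.87) and Reck (0.87). Nptx1, a secreted pentraxin of neurons, read 10.55 in that tumour against a median of 4.75 and a highest of 7.17 in the others. Edil3, an extracellular matrix protein that binds integrins, read 8.48 against a median of 5.76 and a highest of 6.26. Cdh2, which encodes N-cadherin, read 7.93 against a median of 4.78, and Pdgfa, a growth factor, read 10.34 against a median of 7.14.
On MOE430B, over the 51 tumours kept on both arrays, they were Susd5 (0.93), Slc1a2 (0.91), Trpm3 (0.88), Cpt1c (0.88) and Scrn1 (0.87). Slc1a2, a glutamate transporter, read 9.20 in tumour 1 of subline 21 against a median of 6.04, and 7.44 in tumour 2 of subline 24, the next highest. All arrays of a type share 1 design, and the same tumours enter every coefficient. Whether the arrays of a type were processed together is not stated in the sources used here.

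Without tumour 1 of subline 21 the coefficients were lower and the names changed. Over the other 51 tumours on MOE430A the first 10 were Loxl3 (0.73), Gpm6b (0.70), Cdh2 (0.69), Fzd9 (0.68), Arsi (0.68), Mmp16 (0.68), Mest (0.67), Olig1 (0.67), Snorc (0.66) and Ecrg4 (0.65), of which 4 were in the first list. Olig1, a transcription factor of oligodendrocytes, read 11.89 in tumour 1 of subline 21, 9.31 in tumour 2 of subline 24, 7.38 in tumour 1 and 8.94 in tumour 3 of subline 13, against a median of 5.51. Ecrg4, a secreted peptide precursor also made in cartilage, read 13.43, 11.38, 10.42 and 11.05 in the same order, against a median of 8.29. On MOE430B, over 50 tumours, Susd5 (0.73), Slc1a2 (0.73), Ecrg4 (0.69), Cpt1c (0.64) and Scrn1 (0.60) came first, of which 4 were in the list with that tumour.

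**Figure D5:**
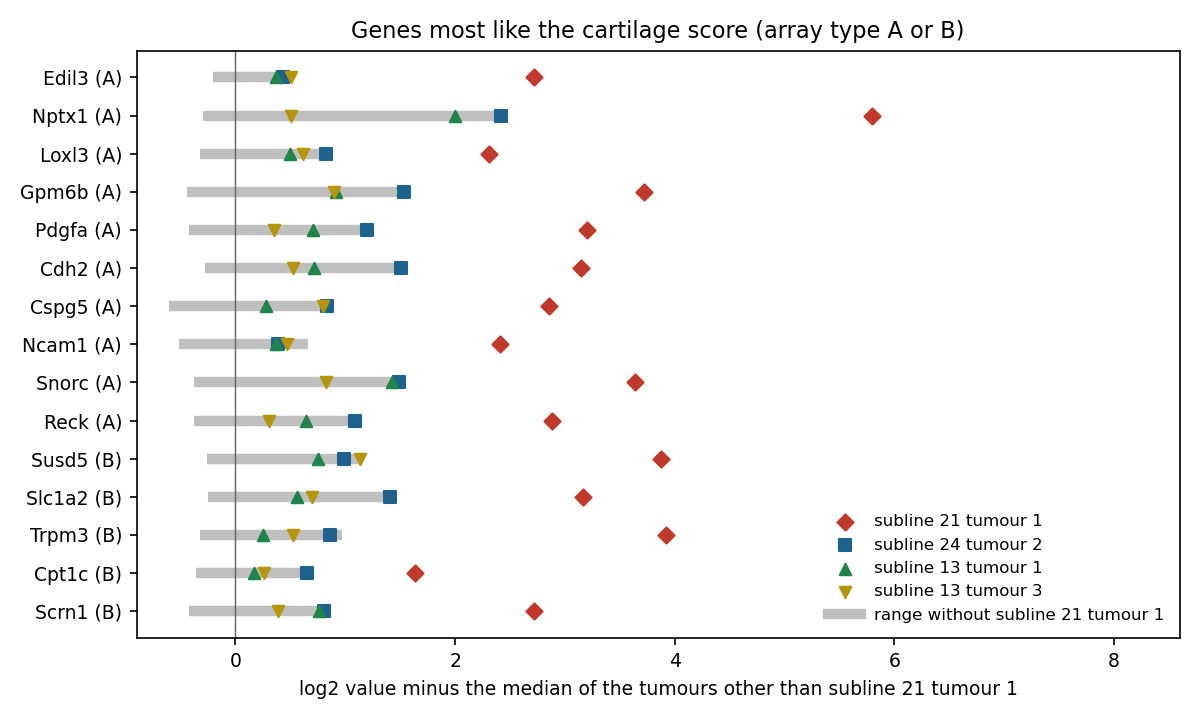
Each row is a gene most like the cartilage score with all kept tumours (A: MOE430A, B: MOE430B), and the horizontal axis is its log2 value minus the median of the tumours other than tumour 1 of subline 21. The grey bars span those other tumours. Tumour 1 of subline 21 lies beyond the bar for all 15 genes, and tumour 2 of subline 24 lies at the end of the bar for most of them, among them Nptx1, Loxl3, Gpm6b and Pdgfa.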

How the data were processed

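The deposited values are on the log2 scale. RMA (robust multi-array averaging) is the tool that the submitters' processing notes name; the labels state neither its version nor the genome build. As a method, RMA corrects background, normalises by quantiles and summarises probes, which can compress differences of dim probe sets. Total RNA was biotin-labelled, per the labels' protocols. Values were used as given, without a further filter in the main tests and counts. The ranking of genes most like the score kept only probe sets with a tumour above the highest absent control. Per array, 64 control probe sets were set aside, leaving 22626 on MOE430A and 22511 on MOE430B. The array types were deposited and tested separately, and columns of other series numbered 0. Each tumour was placed in its subline by its title. Gene symbols came from the platform annotation, updated through RefSeq GRCm38.p6: 20380 probe sets on MOE430A had 1 symbol and 691 several, and on MOE430B 14661 and 245. Genes were named only from probe sets with 1 symbol.

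Sublines were compared with limma 3.58.1 in R 4.3.3 (35 residual degrees of freedom on both arrays), fitted on all probe sets, with the moderated F test and with each subline against the mean of the others. The Benjamini-Hochberg adjustment ran over every probe set of the array type (threshold 0.05). Other values were computed in Python 3.11.15. The scripts were tested on simulated data. The labels name biological replicates only, so the p-values set differences between sublines against the spread between tumours within sublines. The number of arrays limits the precision. A tumour is said to stand out where its log2 value is at least 2 above the median. The member genes, gene lists, limits and left-out arrays were chosen with earlier results of these data known. The brightest probe set of each member is given in full, the others by range or counts; of each other list up to 4 genes with the largest differences in tumour 1 of subline 21 are named, and the 10 (MOE430A) or 5 (MOE430B) genes most like the score. Other genes were chosen after their values were seen. Alternatives were all 56 arrays, the replicate block, quantile normalization, median centring, the brighter part of the probe sets, a trended robust prior, array weights, a 2-fold limit and leaving out each replicate. Leaving out tumour 1 of subline 21 from the tests and counts was chosen after seeing the data.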

Additional observations from a re-analysis of the deposited data

Results flagged for a closer look

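Subline 2, with 4 tumours on each array type, had enough kept tumours to be checked for a tumour far from its companions, on the 19 member probe sets. In 4 of them 1 tumour lay farther from the nearest other than Dixon's critical value allows, a value that chance passes in about 1 of 20 groups. Col9a3 (1460734_at) read 10.25 in tumour 3, against 9.99 to 10.03 in the other 3, and Col9a3 (1460693_a_at) read 6.37 in tumour 1, against 6.83 to 6.90. Hapln1 (1426295_at) read 4.51 in tumour 3, against 4.25 to 4.29, and Hapln1 on MOE430B (1438020_at) read 4.18 in tumour 3, against 4.39 to 4.43. These gaps are small, and both Hapln1 probe sets lie at the level of the absent controls; tumour 3 was the highest of the 4 on one Hapln1 probe set and the lowest on the other.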

How the results depend on the processing

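The count of member probe sets called among sublines stayed at 0 on both arrays under every alternative run, except that array weights gave 7 of 17 on MOE430A, in a fit that called 9234 probe sets in all, against 393. In single sublines, 4 of 17 were called on MOE430A, all in subline 21, with 1764 calls over all probe sets and sublines. With all 56 arrays there were 9 calls, all in subline 23, and with array weights 12, all in sublines 13, 25 and 27, so none of the 4 was kept. Over all probe sets these 2 fits gave 15709 and 15691 calls. Leaving out each replicate gave 0 to 8, and leaving out tumour 1 of subline 21 gave 0. Over all probe sets these runs gave 525 to 1676 and 1302 calls. The difference of subline 21 changed its sign for several member genes, among them Col2a1, Cnmd, Comp, Col11a2 and Hapln1. For Col2a1 it was 1.35, -0.076 to 2.27 when each replicate was left out, and -0.12 without that tumour. In the same order, Cnmd gave 1.39, -0.69 to 2.50, and -0.72, and Comp gave 1.17, -0.32 to 1.94, and -0.26. For Col11a2 it was 0.93, -0.14 to 1.53, and -0.14, and for Hapln1 (1426294_at) it was 0.39, -0.057 to 0.63, and -0.048. All the negative values given here are those without replicate 1 or without that tumour. The Col11a2 call was lost with the replicate block, the trended robust prior and without replicate 3 or 4, and the Col9a3 (1460734_at) call without replicate 3. Without replicate 1 all 4 calls were lost, with limma adjusted p values for Col9a3 of 0.128 (1460693_a_at) and 0.603 (1460734_at). Col2a1 was called in the brighter part of the probe sets (limma adjusted p = 0.0470) and without replicate 2 (limma adjusted p = 0.00968). On MOE430B 0 were called, with 1118 calls over all probe sets, and 1 (Hapln1) after median centring, with 1113. Without replicate 2, which leaves subline 11 with 1 tumour, Hapln1 was also called there. It was higher in subline 21 by 0.72, against 0.46 in the main fit. A tumour stood 4-fold above the median on 6 of 17 probe sets of MOE430A, against 313 of all 22626. At a 2-fold limit it was 12, against 1456 of all, and with all 56 arrays 9, against 4106. It was 1 to 6 when a replicate was left out, with 1 without replicate 1, against 184 of all. Leaving out tumour 1 of subline 21 gave 2, against 202. On MOE430B it was 0, against 140 of all, and 1 at the 2-fold limit, against 857. Of the 10 genes most like the score on MOE430A, 4 were kept without that tumour. Replicate numbers did not pair the tumours: residuals of tumours with the same number had a mean correlation of -0.003 on MOE430A and 0.004 on MOE430B, and 11 of 52 and 19 of 53 tumours were most like a tumour of their own number. The replicate block gave 0 called among sublines and 3 in single sublines on MOE430A, against 403 and 1772 over all probe sets. On MOE430B it gave 0 and 0, against 125 and 1076. The member probe sets of MOE430B were not in the brighter part, so that alternative was not run there. Among the single-tumour differences of the genes, 23 values kept within the spread between replicates and 6, all from another probe set of the gene, moved beyond it. Over all probe sets of MOE430A, 393 were called among sublines, and 14, 92, 34 and 389 without replicates 1 to 4. On MOE430B it was 151, and 25, 29, 255 and 116; the cause was not tested. Signal near the absent controls limits what Acan, Hapln1, Col9a3 (1460693_a_at) and the MOE430B probe set of Sox9 can show.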

Other observations

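The arrays left out on MOE430A gave these values for the cartilage genes. In tumour 2 of subline 23 Col2a1 read 9.46, Comp 8.97 and Cnmd 7.48, against kept medians of 7.76, 7.45 and 5.91, and 15 of its 17 member values lay within the kept range. In tumour 1 of subline 23, 16 of 17 lay within it. Tumour 3 of subline 23, whose array correlated with the others at a median of 0.222, had 6 values below and 4 above the kept range, with Col9a1 (1428571_at) at 7.86 against a kept lowest of 11.66. In tumour 3 of subline 25 5 values lay below and 1 above, with Cnmd at 7.11 and Comp at 8.38. On MOE430B both member probe sets of all 3 left-out tumours lay within the kept range.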
